A study of Mus musculus with 8 samples.

Results

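The genes examined here encode the Myc, Max and Mxd network of transcription factors in murine acute myeloid leukemia (AML) cells. They are Myc and its paralogs Mycn and Mycl, the shared partner Max, the Max-binding antagonists Mxd1, Mxd3, Mxd4, Mxi1 and Mnt, and the Max-like protein Mlx. The 10 genes were taken by symbol, with no threshold on a measured value, and each matched 1 of the 54838 genes in the count table. RNA was sequenced from 8 samples of AML cells of C57BL/6 background and RUNX1-RUNX1T1 genotype, a core-binding factor fusion oncogene, that had been transplanted into Ptprca recipients. Of these samples, 4 came from vehicle-treated mice (Vehicle) and 4 from mice given AG636, an inhibitor of dihydroorotate dehydrogenase (DHODH) in de novo pyrimidine synthesis, by oral gavage at 100 mg/kg b.i.d., for 1 day by the study's description. The comparison asks what an acute block of DHODH does to transcripts of immature leukemic cells. All groups share the fusion gene and the transplant, the labels give sub-lethal irradiation of the recipients, and a group without leukemia was not analysed here.

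The cells were sorted from bone marrow and spleen as cKit-positive cells with little or no CD11b, and the labels do not say which organ gave which sample. The labels also do not say that the samples are separate mice, and the study's legend gives fewer mice per group than the samples used here, so samples may share an animal and the p-values measure the spread between these samples. The libraries held 6120030 to 7162036 counts, and 3 counts, taken as the limit of detection, corresponded to 0.434 to 0.479 CPM, the counts scaled to a common library size. Kit, which encodes the sorting antigen, averaged 163 CPM in Vehicle and 206 CPM in AG636, whereas Itgam, which encodes CD11b, had at most 4 counts in a sample. AG636 sample 3 and Vehicle sample 4 stood apart from their groups when the samples were ordinated on their most variable genes, and the called results on network genes are given with and without them. In bulk RNA, fewer expressing cells and less RNA per cell cannot be told apart.

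Myc is a basic helix-loop-helix leucine zipper protein that binds DNA as a dimer with Max, at sites called E-boxes, and raises the transcription of genes for ribosome assembly, nucleotide supply and growth. Mxd proteins and Mnt compete for the same partner and the same sites and bring the Sin3 corepressor with its histone deacetylases. In myeloid cells the Mxd1 level is known to rise and the Myc level to fall as blasts mature. Myc mRNA and protein both turn over quickly.

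The promoter letters of 9 of the 10 genes could be read from the RefSeq table for build GRCm38.p6, whose windows run from 250 bases before to 50 bases after each gene start, and Myc had no entry. The palindromic E-box CACGTG occurred in the windows of 4 genes, Max, Mxd4, Mnt and Mlx. These 4 stretches are shown because they hold the letters that Myc-Max and Mxd-Max dimers recognise, with the E-box in capitals and each strand read in the direction of the gene. They lie at chr12:76962234-76962263 (minus strand) for Max, chr5:34187912-34187941 (minus) for Mxd4, chr11:74830789-74830818 (plus) for Mnt and chr11:101087238-101087267 (plus) for Mlx.
Max: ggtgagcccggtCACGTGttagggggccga
Mxd4: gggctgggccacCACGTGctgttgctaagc
Mnt: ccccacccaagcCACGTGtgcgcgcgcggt
Mlx: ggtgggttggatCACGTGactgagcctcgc
The first E-box base lay 3 bases upstream of the RefSeq gene start in Max, 40 in Mlx, 123 in Mnt and 219 in Mxd4. Of all 32851 RefSeq windows, which include genes not measured here, 7.15% held CACGTG. Among the genes tested below that had a window, 990 held it and 7164 did not. A match is a description of letters and not a measured binding site.

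The 250 bases upstream of Mxd1 and Mxd4 are shown because these were the antagonist genes that passed the test described below. The Mxd1 stretch is chr6:86669160-86669409 (minus strand) and the Mxd4 stretch is chr5:34187711-34187960 (minus strand). Capitals mark CACGTG and the GC box, GGGCGG on either strand.
Mxd1: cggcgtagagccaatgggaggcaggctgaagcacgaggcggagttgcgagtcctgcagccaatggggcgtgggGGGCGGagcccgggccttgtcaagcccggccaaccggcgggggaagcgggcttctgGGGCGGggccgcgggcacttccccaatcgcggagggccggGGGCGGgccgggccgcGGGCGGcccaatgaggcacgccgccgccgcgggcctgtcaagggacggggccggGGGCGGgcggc
Mxd4: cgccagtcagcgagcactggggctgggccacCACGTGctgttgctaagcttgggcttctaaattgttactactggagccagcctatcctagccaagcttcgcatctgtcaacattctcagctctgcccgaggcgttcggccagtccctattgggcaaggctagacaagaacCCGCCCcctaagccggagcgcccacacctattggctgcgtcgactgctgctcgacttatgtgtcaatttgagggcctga
The Mxd1 stretch held 5 GC boxes and lacked the E-box, and 78.4% of its bases were G or C. That of Mxd4 held 1 E-box and 1 GC box, with 58.0% G or C. A GC box was present in 35.7% of all windows, which also hold the 50 bases after the start and include genes not measured here. It was more common among the genes tested below, in 734 of 990 with CACGTG and 4997 of 7164 without.

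Levels were compared in CPM of 3′ tags, a scale on which a transcript gives about the same number of tags whatever its length, after TMM scaling of the library sizes. Differences are log2 fold changes, AG636 minus Vehicle, from limma-voom across all 10911 genes that passed the filter on low counts, with Benjamini-Hochberg adjusted p-values over all of them, and a gene was called at an adjusted p under 0.05. The filter passed 8 of the 10 genes, each with at least 48 counts in every sample. Mycn had 0 counts in all 8 samples, so any level lay below the limit of 3 counts per library. Mycl had 1 count in Vehicle sample 1 and 0 in the other 7 samples. Neither gene was tested.

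Myc was lower and Mxd1 and Mxd4 were higher in AG636, while Max, Mxd3, Mxi1, Mnt and Mlx did not pass the test. Of the 8 genes tested, 3 were called, beside 14.0% of all genes tested. In the higher direction these were 2 genes, against a background of 5.47%, and in the lower direction 1 gene, against 8.49%. The CPM of the groups did not overlap for 4 of the 8, Myc, Mxd1, Mxd3 and Mxd4, and for 22.2% of all genes tested. The median log2 fold change over the 8 genes was 0.02 and over all genes tested it was −0.01. The number of genes called depended on the samples of both groups, and 1523 genes were called with all of them. Leaving out Vehicle sample 1, 2, 3 or 4 gave 798, 918, 688 and 1010 genes called. Leaving out AG636 sample 1, 2, 3 or 4 gave 1043, 1238, 1706 and 1655. Myc, Mxd1 and Mxd4 were called in each of these fits.

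**Figure D1:**
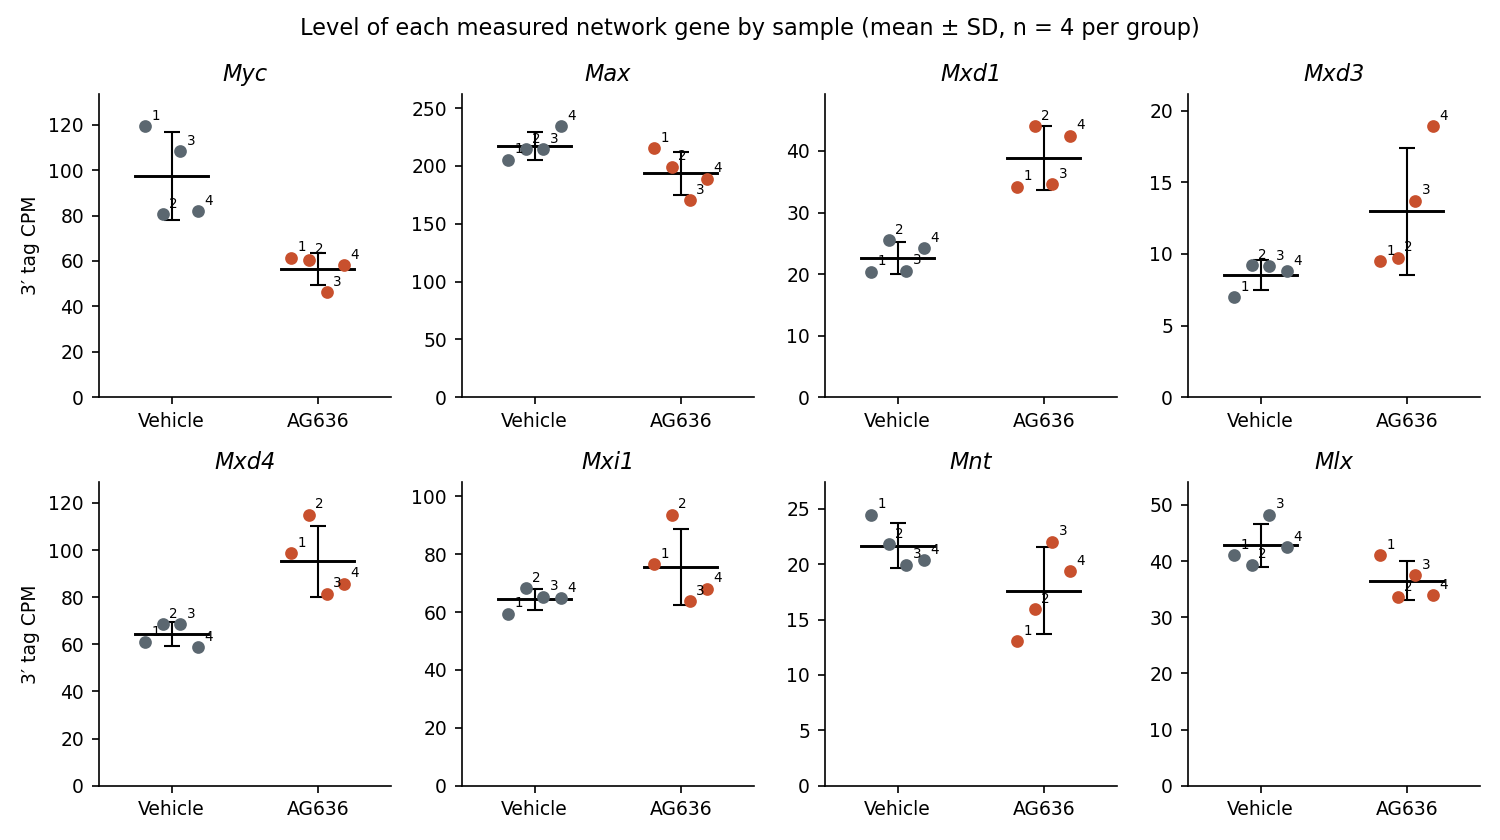
CPM of 3′ tags (vertical axes, from 0) of the 8 measured network genes in the 4 Vehicle (grey) and 4 AG636 (orange) samples. Points are samples with their number, and black lines are the mean ± SD. The Myc points of AG636 all lie below those of Vehicle, and the Mxd1 and Mxd4 points all lie above.

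Myc (ENSMUSG00000022346; GRCm38 chr15:61985391-61990374, plus strand) was the only Myc paralog measured above the limit of detection. Its level was 119, 80.7, 108 and 82.0 CPM in Vehicle samples 1 to 4 and 61.4, 60.7, 46.1 and 58.1 CPM in AG636 samples 1 to 4. All AG636 samples lay below all Vehicle samples, although the Vehicle samples themselves fell into a higher pair, samples 1 and 3, and a lower pair, samples 2 and 4. The means were 97.6 ± 19.3 and 56.6 ± 7.12 CPM (SD, n = 4). The fitted log2 fold change was −0.77, a 1.71-fold decrease (SE 0.15 on the log2 scale, limma-voom adjusted p = 0.00867), and the exact two-sided permutation test over the samples gave p = 0.0286, the smallest that 70 relabellings can give. Of all genes tested, 2.56% had a log2 fold change as low as that of Myc or lower. Without AG636 sample 3, which had the lowest Myc level, the log2 fold change was −0.68 (limma-voom adjusted p = 0.0139), and without Vehicle sample 4 it was −0.84 (limma-voom adjusted p = 0.0149).

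Max (ENSMUSG00000059436; chr12:76937269-76962201, minus strand), the partner of Myc and of the antagonists, was the most abundant transcript of the network. It measured 205, 215, 215 and 234 CPM in Vehicle and 215, 199, 170 and 189 CPM in AG636. AG636 sample 1 lay within the Vehicle range. The means of 217 ± 12.2 and 193 ± 18.8 CPM (SD, n = 4) differed by −0.17 on the log2 scale, with a 95% interval of −0.37 to 0.03 and a limma-voom adjusted p of 0.223. AG636 sample 3 again gave the lowest value, and the difference was −0.11 without it.

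Mxd1 (ENSMUSG00000001156; chr6:86647042-86669161, minus strand), formerly Mad1, is the antagonist best known from myeloid differentiation. Vehicle samples measured 20.4, 25.5, 20.6 and 24.2 CPM, and AG636 samples 34.2, 44.1, 34.6 and 42.5 CPM. Every AG636 sample exceeded every Vehicle sample. The mean rose from 22.7 ± 2.58 to 38.8 ± 5.15 CPM (SD, n = 4). The fitted log2 fold change of 0.77, a 1.71-fold increase (SE 0.13 on the log2 scale, limma-voom adjusted p = 0.00541), came with an exact permutation p of 0.0286. It was 0.82 both without AG636 sample 3 and without Vehicle sample 4, with limma-voom adjusted p-values of 0.00540 and 0.0143.

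Mxd4 (ENSMUSG00000037235; chr5:34173883-34187720, minus strand), another Mad-family repressor, measured 61.0, 68.7, 68.6 and 58.7 CPM in Vehicle and 98.8, 115, 81.5 and 85.7 CPM in AG636. The groups were again separate. The means of 64.3 ± 5.14 and 95.3 ± 15.1 CPM (SD, n = 4) were separated by a fitted log2 fold change of 0.56, a 1.47-fold increase (SE 0.12 on the log2 scale, limma-voom adjusted p = 0.0132; exact permutation p = 0.0286). Without AG636 sample 3 the log2 fold change was 0.63 (limma-voom adjusted p = 0.00847), and without Vehicle sample 4 it was 0.53 (limma-voom adjusted p = 0.0357). An antisense gene that overlaps exons of Mxd4 had 0 counts.

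Mxd3 (ENSMUSG00000021485; chr13:55325168-55329823, minus strand), the family member associated with cycling cells, was the lowest of the tested genes. Vehicle samples measured 6.99, 9.22, 9.13 and 8.82 CPM, and AG636 samples 9.49, 9.74, 13.7 and 18.9 CPM. The groups did not overlap, but AG636 samples 1 and 2 lay just above the Vehicle range and samples 3 and 4 far above it. On the log2 scale the groups differed by 0.56 (SE 0.24, limma-voom adjusted p = 0.144). The exact permutation p of Mxd3 was also 0.0286, which separate groups of 4 samples always give. The exons of Mxd3 overlap those of Prelid1 on the other strand, which had 10125 counts over all samples against 564 for Mxd3. How the counting used strand is not given in the sources used here, so the Mxd3 values are uncertain.

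Mxi1 (ENSMUSG00000025025; chr19:53310506-53375810, plus strand), also called Mad2, measured 59.4, 68.2, 65.3 and 64.8 CPM in Vehicle and 76.7, 93.7, 63.8 and 68.1 CPM in AG636. Only AG636 samples 1 and 2 exceeded the Vehicle range, and the log2 fold change was 0.22, with a 95% interval of −0.05 to 0.48 (limma-voom adjusted p = 0.255). Mxi1 matched Mxd4 in Vehicle, with means of 64.4 and 64.3 CPM.

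Mnt (ENSMUSG00000000282; chr11:74830920-74845725, plus strand), a Max partner known to be expressed in proliferating and resting cells alike, measured 24.5, 21.8, 20.0 and 20.4 CPM in Vehicle and 13.1, 16.0, 22.0 and 19.4 CPM in AG636. AG636 samples 1 and 2, which had the higher Mxi1 and Mxd4 levels, lay clearly below the Vehicle range, sample 4 just below it and sample 3 inside it. The log2 fold change was −0.32, with a 95% interval of −0.68 to 0.04 (limma-voom adjusted p = 0.213).

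Mlx (ENSMUSG00000017801; chr11:101087277-101092207, plus strand) pairs with some Mxd proteins and Mnt, and with the nutrient-responsive factors Mlxip and Mlxipl, in place of Max. It measured 41.1, 39.3, 48.3 and 42.4 CPM in Vehicle and 41.1, 33.5, 37.5 and 34.0 CPM in AG636. AG636 sample 1 lay within the Vehicle range. The log2 fold change was −0.23, with a 95% interval of −0.47 to 0.01 (limma-voom adjusted p = 0.176). Exons of Mlx overlap those of Psmc3ip on the other strand, which had 613 counts over all samples against 2073 for Mlx. Of the Mlx partners, Mlxip measured 13.7 CPM in both groups (log2 fold change −0.00, limma-voom adjusted p = 0.995), and Mlxipl had 0 counts in every sample. Mga, a Max partner with a second DNA-binding domain, averaged 161 CPM in Vehicle and 142 CPM in AG636, and although the groups did not overlap it did not pass the test (log2 fold change −0.18, limma-voom adjusted p = 0.142).

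**Figure D2:**
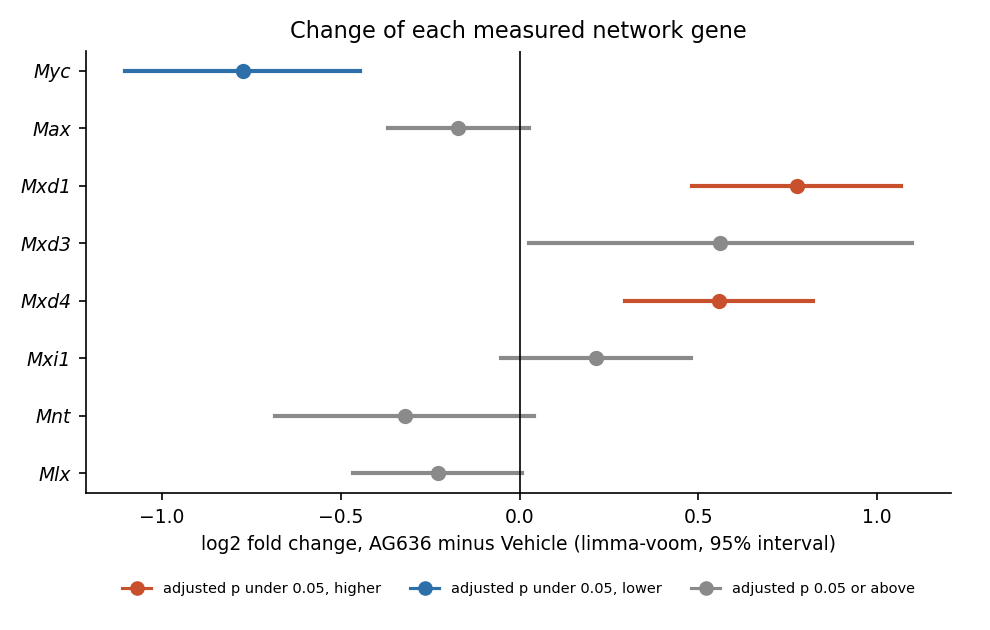
Log2 fold change of the 8 measured network genes (horizontal axis, AG636 minus Vehicle, limma-voom) with 95% intervals. Myc (blue, −0.77) was called lower, Mxd1 (0.77) and Mxd4 (0.56) were called higher (orange), and the grey genes had adjusted p-values of 0.144 or above.

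The order of the transcript levels differed between the groups, as a description without a test. In Vehicle, Max stood first, followed by Myc, then Mxi1 and Mxd4, Mlx, Mxd1 and Mnt, and Mxd3. Mxi1 and Mxd4 overlapped each other, as did Mxd1 and Mnt, and all other neighbours in this order were separate in all samples. In AG636, Mxd4 and Mxi1, which overlapped, took the places after Max, and Myc came next, below both. Mxd1 and Mlx overlapped below Myc, and Mnt and Mxd3 overlapped at the bottom. Myc thus exceeded Mxd4 in each Vehicle library, with 0.511 to 0.851 Mxd4 counts per Myc count, and lay below it in each AG636 library, with 1.48 to 1.90.

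Ratios within a library do not depend on the scaling between libraries. The summed counts of Mxd1, Mxd3, Mxd4, Mxi1 and Mnt per Myc count were 1.44, 2.40, 1.69 and 2.16 in Vehicle samples 1 to 4 and 3.78, 4.59, 4.68 and 4.04 in AG636 samples 1 to 4. The group means were 1.92 ± 0.434 and 4.27 ± 0.434 (SD, n = 4). The lowest AG636 ratio was thus above the highest Vehicle ratio. Both parts of the ratio differed. Myc counts per 100 Max counts averaged 45.3 ± 10.9 in Vehicle and 29.2 ± 1.71 in AG636 (SD, n = 4), and the Mxd and Mxi1 counts per 100 Max counts averaged 73.7 ± 5.69 and 115 ± 12.3 (SD, n = 4). Mxd1 alone averaged 10.4 ± 1.02 and 20.2 ± 3.01 counts per 100 Max counts (SD, n = 4), and none of these ratios to Max overlapped between the groups. Relative to Max, Myc was nearly uniform in the AG636 samples, between 27.1 and 30.7, but spread from 35.0 to 58.2 in Vehicle.

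**Figure D3:**
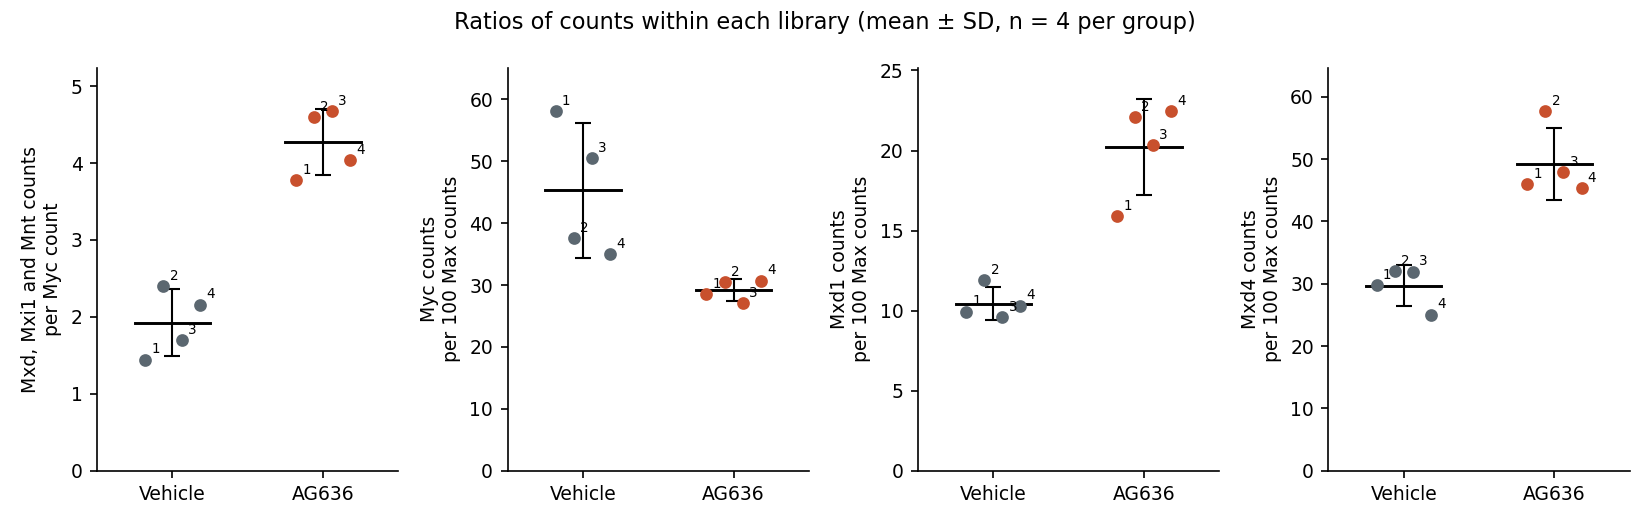
Ratios of raw counts within each library (vertical axes, from 0) in the 4 Vehicle (grey) and 4 AG636 (orange) samples, with the mean ± SD. Antagonist counts per Myc count lie between 1.44 and 2.40 in Vehicle and between 3.78 and 4.68 in AG636, and in each of the other panels the groups are also separate.

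The make-up of the antagonist pool moved as well. Mxd1 accounted for 12.5 ± 1.15% of the Mxd, Mxi1 and Mnt counts in Vehicle and 16.2 ± 1.41% in AG636, and Mnt for 12.0 ± 1.51% and 7.46 ± 2.20% (SD, n = 4). Mxi1 gave 35.5 ± 0.887% and 31.3 ± 2.35%, and Mxd4 35.4 ± 1.70% and 39.5 ± 2.84% (SD, n = 4). The Mxd1, Mnt and Mxi1 shares did not overlap between the groups, whereas those of Mxd4 did. The summed level of all network genes overlapped between the groups, at 528 to 555 CPM in Vehicle and 470 to 572 CPM in AG636.

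Across the 8 samples, Mxd1 ran most strongly against Myc (Pearson r = −0.87 of log2 CPM) and Mxd4 ran with Mxd1 (r = 0.87) and Mxi1 (r = 0.86). These coefficients are descriptions, since all points share the contrast between the groups. Over 5260 genes whose log2 CPM averaged 5 or more, those whose levels most resembled that of Myc over the 8 samples were Asf1a (r = 0.99), Haus6 (r = 0.97), Hnrnph2 (r = 0.96), Slf2 (r = 0.96) and Azi2 (r = 0.95). Asf1a is a histone chaperone and Haus6 a subunit of the augmin complex of the spindle. Haus6 (log2 fold change −0.39, limma-voom adjusted p = 0.0149) and Slf2 (−0.28, limma-voom adjusted p = 0.0420) were called lower, and the others were not called.

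The transcripts around Myc were then examined in lists of known partners, regulators and targets. Most genes in a list of known Myc-induced genes, many of which act in ribosome assembly, were lower in AG636. Of the 65 tested genes of this list, 45 (69.2%) were called lower by limma-voom, beside 8.49% of all genes tested. The list was chosen with earlier results of these data known, so the contrast is a description. No share was taken for ribosome assembly genes outside the list. None of the list was called higher by limma-voom, edgeR or DESeq2. In that direction 0 had an unadjusted limma-voom p under 0.05, beside 3351 of all 10911 genes tested in either direction. The median log2 fold change of the list was −0.59, and 62 of its 65 values were negative. The summed level of the list was 16462 to 17120 CPM in Vehicle and 10668 to 12797 CPM in AG636, without overlap. The sums were 16665, 16462, 16826 and 17120 CPM in Vehicle samples 1 to 4 and 10668, 11014, 11936 and 12797 CPM in AG636 samples 1 to 4. Vehicle sample 2, with the lowest Myc level of its group, had the lowest sum, but Vehicle sample 4, also with a low Myc level, had the highest. AG636 sample 3, with the lowest Myc level, had the second highest sum of its group. A relation of the sum to Myc within the groups was not tested. Without AG636 sample 3, 43 of the genes were called lower, and without Vehicle sample 4, 38.

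Among the target genes with the smallest p-values, the nucleolar protein Ncl fell from 2097 ± 71.2 to 1207 ± 82.9 CPM (SD, n = 4; log2 fold change −0.80, limma-voom adjusted p = 0.00106). Gnl3, which encodes nucleostemin, fell from 369 ± 19.8 to 182 ± 25.6 CPM (SD, n = 4; −1.03, limma-voom adjusted p = 0.00127). Srm, the spermidine synthase, fell from 197 ± 2.87 to 94.1 ± 21.6 CPM (SD, n = 4; −1.09, limma-voom adjusted p = 0.00194). Imp4 (−0.74), Mybbp1a (−0.68), Mrto4 (−0.90), Dkc1 (−0.83) and Nip7 (−0.82), which act in rRNA processing or ribosome assembly, were called lower as well. Of the 58 tested target genes with a promoter window, 17 held CACGTG. Their median log2 fold change was −0.65 and 64.7% of them were called lower, beside −0.57 and 68.3% for the 41 without.

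**Figure D4:**
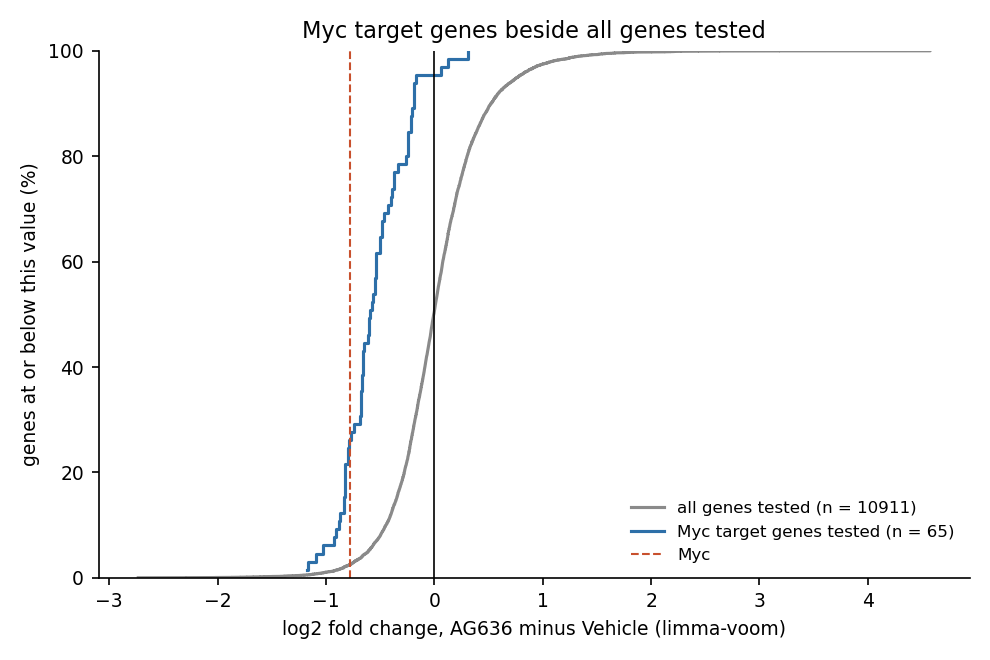
Cumulative share of genes (vertical axis, percent) at or below each log2 fold change (horizontal axis, AG636 minus Vehicle) for all 10911 genes tested (grey) and the 65 tested Myc target genes (blue), with Myc as the dashed line at −0.77. The target curve lies to the left, with a median of −0.59 beside −0.01.

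The same letters were counted over all genes tested. Of the 990 genes tested with CACGTG in a promoter window, 13.9% were called lower and 3.74% higher. The matching shares of the 7164 genes with a window but no CACGTG were 8.33% and 5.74%. Among genes that also held a GC box, 13.8% of 734 with CACGTG and 8.69% of 4997 without were called lower. These shares are descriptions, and neither base composition beyond the GC box nor the overlap with ribosome assembly genes was accounted for.

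Of 9 genes commonly given as repressed by Myc, 4 passed the filter on low counts and were tested. The others had at most 9 counts in a sample. Cdkn1b, which encodes the cell cycle inhibitor p27, was called higher (107 to 156 CPM, log2 fold change 0.52, limma-voom adjusted p = 0.0436). All 4 tested values were positive, beside 49.4% of all genes tested, with a median of 0.55. Limma-voom and edgeR called 1 of the 4 genes (25%) higher and DESeq2 called 2, beside 5.47% of all genes tested by limma-voom. Among 10 markers of cycling cells, 2 (20%) were called higher and 2 (20%) lower, beside 5.47% and 8.49% of all genes tested, and 6 were not called. Ccnb2 (0.58) and Ccnb1 (0.45), the B-type cyclins, were higher, although the CPM of Ccnb1 overlapped between the groups. Tyms (−0.59), the thymidylate synthase, and Mcm2 (−0.39), a subunit of the replicative helicase, were lower.

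Of 15 chromatin cofactors of Myc, 5 (33.3%) were called lower, beside 8.49% of all genes tested, with a median log2 fold change of −0.19. Limma-voom, edgeR and DESeq2 called 0 of the 15 higher. In that direction 2 had an unadjusted limma-voom p under 0.05, beside 3351 of all 10911 genes tested in either direction. The 5 cofactors called lower were Wdr5 (−0.42), which anchors Myc to chromatin, the AAA+ ATPases Ruvbl1 (−0.40) and Ruvbl2 (−0.41), the SWI/SNF subunit Smarcb1 (−0.41) and the acetyltransferase Kat2a (−0.38). Of 14 genes of the Sin3 corepressor that the Mxd proteins recruit, 1 (7.14%) was called higher, beside 5.47% of all genes tested. This was the scaffold Sin3b (0.37, limma-voom adjusted p = 0.0461), although its CPM overlapped between the groups. The corepressor list had a median of −0.13. Limma-voom and edgeR called 0 of its genes lower, beside 926 and 918 of all 10911 genes tested, and DESeq2 called 2, beside 1015. In that direction 3 had an unadjusted limma-voom p under 0.05, beside 3351 of all genes tested in either direction. Of 8 tested E-box factors outside the network, 1 (12.5%) was called lower, beside 8.49% of all genes tested, and the other 7 were not called. Tfap4, a bHLH factor known as a Myc target, fell from 37.7 to 20.6 CPM (−0.87, limma-voom adjusted p = 0.00588).

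Regulators of Myc itself were called in both directions. Of 20 genes acting on Myc protein turnover, 4 (20%) were called lower and 2 (10%) higher, beside 8.49% and 5.47% of all genes tested, with a median of −0.20. The lower genes included Set (−0.69), an inhibitor of the phosphatase PP2A, Usp36 (−0.62), a nucleolar deubiquitinase, and the ubiquitin ligase Huwe1 (−0.28). The mitotic kinases Aurka (0.58) and Plk1 (0.39) were higher, although the CPM of each overlapped between the groups. Of 10 tested genes acting on Myc mRNA turnover, 1 (10%) was called higher and 2 (20%) lower, beside 5.47% and 8.49% of all genes tested. The other 7, which include both decay factors and stabilisers, were not called, and the median of the list was −0.09. Zfp36l1, an RNA-binding protein that promotes decay of AU-rich transcripts, rose from 102 to 167 CPM (0.71, limma-voom adjusted p = 0.00588). Elavl1 (−0.44) and Ybx1 (−0.29), which are known to stabilise transcripts, fell. A part of these genes in the Myc level was not tested.

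At the Myc locus, the neighbouring long noncoding RNA gene Pvt1 went against Myc. Pvt1 rose from 54.0 CPM, with a Vehicle range of 44.7 to 60.7, to 105 CPM, with an AG636 range of 94.1 to 119, so that the groups were separate (log2 fold change 0.96, SE 0.11, limma-voom adjusted p = 0.00178). The other 2 tested neighbours, Asap1 (0.30, limma-voom adjusted p = 0.236) and Fam49b (0.04, limma-voom adjusted p = 0.857), were not called.

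**Figure D5:**
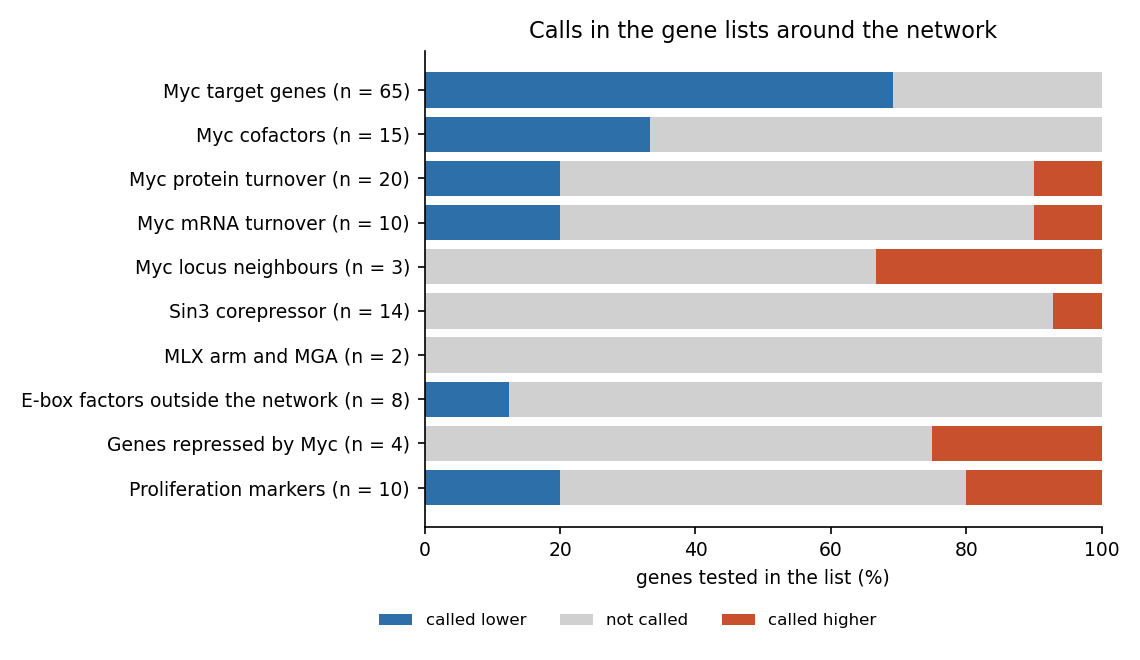
Share of the tested genes (horizontal axis, percent) called lower (blue), called higher (orange) or not called (grey) in each list around the network, with the number tested beside its name. The target list has the largest share called lower, 69.2%, and some lists hold few genes, such as the 3 locus neighbours. All lists were chosen with earlier results of these data known.

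Markers of other cells were measured beside these results, and their part in them was not tested. Of 8 mature myeloid markers tested 0 were called by limma-voom, edgeR or DESeq2. An unadjusted limma-voom p under 0.05 was met by 1 of the 8, beside 3351 of all 10911 genes tested. The summed level of the list was 48.7 to 114 CPM in Vehicle and 21.8 to 223 CPM in AG636. Of 9 tested erythroid markers 8 had positive log2 fold changes, beside 49.4% of all genes tested. Limma-voom called 1 of the 9 higher, Hbb-bt (0.90), beside 5.47% of all genes tested. Both edgeR and DESeq2 called 2 of them higher, beside 694 and 946 of all 10911 genes tested. The largest of the erythroid values, 1.58, was not called (limma-voom adjusted p = 0.0501). The summed level of the erythroid list overlapped at 2343 to 6153 and 4791 to 6294 CPM. All 5 tested B cell markers had positive log2 fold changes, beside 49.4% of all genes tested, with a median of 0.71. Limma-voom called 1 of the 5 higher, beside 5.47% of all genes tested. This was Cd79a (1.83), with at most 22 counts in a sample, which DESeq2 did not call. The summed level of the B cell list was 6.61 to 14.0 CPM in Vehicle and 11.8 to 24.1 CPM in AG636. The T and NK cell list summed to 3.96 to 10.5 CPM in Vehicle and 5.59 to 21.2 CPM in AG636. The megakaryocyte list summed to 26.5 to 32.5 CPM in Vehicle and 21.4 to 73.1 CPM in AG636. Limma-voom called 0 of the 3 megakaryocyte genes tested. An unadjusted limma-voom p under 0.05 was met by 1 of them, beside 3351 of all 10911 genes tested. Both edgeR and DESeq2 called 1 higher, beside 694 and 946 of all genes tested.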

How the data were processed

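The deposited table holds raw counts per gene that the authors obtained from single-end 3′ libraries (QuantSeq kit, primed at the poly-A tail, so tags come from the last part of a transcript). Per the submitters' processing notes, reads were trimmed with cutadapt 1.9.1, aligned to mm10 (GRCm38) with HISAT2 2.0.4 and counted with featureCounts of Subread 1.5.0-p3. The handling of strand, multimapping and overlapping genes is not given in the sources used here, and no molecular identifiers were used, so limits of detection cover counting error only. Depth was 6120030 to 7162036 counts per sample.

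Groups came from the labels. Genes were filtered with filterByExpr (minimum count 10) in edgeR 4.0.16, scaled by TMM and fitted with limma-voom (limma 3.58.1, R 4.3.3) on the group alone over 10911 genes, in place of an edgeR main test because limma is the method the study names. edgeR's quasi-likelihood test, DESeq2 1.42.0, other scalings, filters, weights, a replicate block and leaving out each sample were alternatives, and the fit was tested on simulated data. Permutation tests were exact and two-sided on log2 CPM (prior count 2).

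The network genes and all lists were chosen with earlier results of these data known. Named genes were the 10 network genes, all of the Mlx partners with Mga, the sort markers, up to 4 called genes with the smallest p in each list (8 for Myc targets) and the 5 genes most like Myc. Kat2a, Huwe1, Plk1, Asap1 and Fam49b lie outside this rule and were named after their values were seen. Ahsp, an erythroid marker, did not match the table. Sequences are from RefSeq (GRCm38.p6). Results on a few list genes are not reported here.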

Additional observations from a re-analysis of the deposited data

Results flagged for a closer look

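Mxd3 in Vehicle sample 1, at 2.87 log2 CPM, lay far below the other Vehicle samples, which measured 3.19 to 3.25 log2 CPM. Its gap to the nearest of them was 0.840 of the range of the group, above the 95% critical value of Dixon's test for 4 samples. Of the 54 combinations of a gene, ratio or list sum with a group that were examined in this way, 1 stood out, where chance gives about 2.7.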

How the results depend on the processing

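Myc, Mxd1 and Mxd4 stayed called, and Max, Mxd3, Mxi1, Mnt and Mlx stayed uncalled, each with its direction, under all 18 alternatives. The log2 fold change ranged from −0.86 to −0.67 for Myc, 0.71 to 0.85 for Mxd1 and 0.46 to 0.63 for Mxd4, with adjusted p-values up to 0.0337, 0.0259 and 0.0467. The called Myc target genes numbered 37 to 48. Leaving out 1 sample gave 688 to 1706 genes called of all genes tested beside 1523, and 37 to 47 target genes; fewer samples entered these fits. With the replicate block 1446 genes were called, and no call on a network gene changed. Same-numbered samples deviated together with correlations of −0.14, 0.01, 0.20 and 0.14, and samples 1, 2 and 4 matched another number best, so the numbers were not taken as pairs. The share of calls in the lower direction was 60.8% with TMM scaling and 38.3% with library size alone, under which the median of all genes was 0.06. At this depth Mycn and Mycl could not be compared.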
